A study of Homo sapiens with 6 samples.

Results

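The 10 genes described here encode neurofilaments and other proteins used as markers of neuronal and neuroendocrine cells. They are NEFL, NEFM, NEFH, INA, NRN1, CHGA, SYP, NCAM1, UCHL1 and STMN2, taken by symbol from a table of 60664 human genes, and each had 1 row. RNA-seq compared cells that stably carried a short hairpin RNA against PDGFC, the ligand platelet-derived growth factor C (shPDGFC, n = 3 libraries), with cells given the shNC hairpin (n = 3 libraries). The labels name the cells LNCaP, a line from human prostate cancer, and call them LNCaPE in the titles. The design text describes them as LNCaP-EnzaR, resistant to enzalutamide, a hormonal drug against prostate cancer. All 6 libraries thus share the resistant background and a hairpin, and no parental or hairpin-free cells were compared. The sources used here do not give the hairpin sequences, how many hairpins targeted PDGFC, or how many clones were used.

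Neurofilaments are the intermediate filaments of neurons, assembled from light (NEFL), medium (NEFM) and heavy (NEFH) subunits together with alpha-internexin (INA). Neuroendocrine cells store hormones and amines in dense-core granules rich in chromogranin A (CHGA), and carry synaptophysin (SYP), NCAM1 and UCHL1, which pathologists stain to recognise them. In prostate cancer, some tumours lose luminal features under hormonal treatment and gain such neuroendocrine ones.

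Levels are given in RPKM, in which reads are scaled by gene length and by the total of the library, so that genes of different length can be compared. Library totals lay between 17360455 and 23930217 reads. The test was limma on log2(RPKM + 1), fitted over the 15337 genes that reached 1 RPKM in at least 3 libraries. P-values were adjusted over all of them by the Benjamini-Hochberg method, and "rose" or "fell" is written only where the adjusted p was under 0.05. Changes are log2 differences, shPDGFC minus shNC, on the log2(RPKM + 1) scale. Adding 1 makes the change of a weakly expressed gene look smaller than it is. Whether libraries of the same group stem from separate cultures is not stated in the labels, so p-values reflect no more than the variation among these 6 libraries, and it may be technical. In bulk RNA, fewer cells of a kind and less RNA per cell cannot be told apart.

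As a check of the knockdown, PDGFC itself fell from 8.35 ± 0.32 to 2.65 ± 0.31 RPKM (n = 3, SD; adjusted p = 0.00016, limma). Mitochondrial genes took between 3.73% and 4.06% of the reads in shNC and between 4.18% and 4.66% in shPDGFC, without overlap, and the part of this share in the results below was not tested.

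The member that changed most was NRN1, which fell to 0.542 times its shNC level. NEFL fell slightly, CHGA rose from a low level, and NEFM and INA, the partners of NEFL in the filament, did not pass. Of the 10 members 8 were abundant enough to be tested, of which 1 rose, 2 fell and 5 did not pass. Across all tested genes 29.8% passed in either direction, 14.2% higher and 15.6% lower, so 3 of 8 is near the background. The median log2 change of the tested members was -0.09, against -0.01 over all tested genes. The groups did not overlap in 6 of the 8, beside 46.8% of all tested genes.

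**Figure D1:**
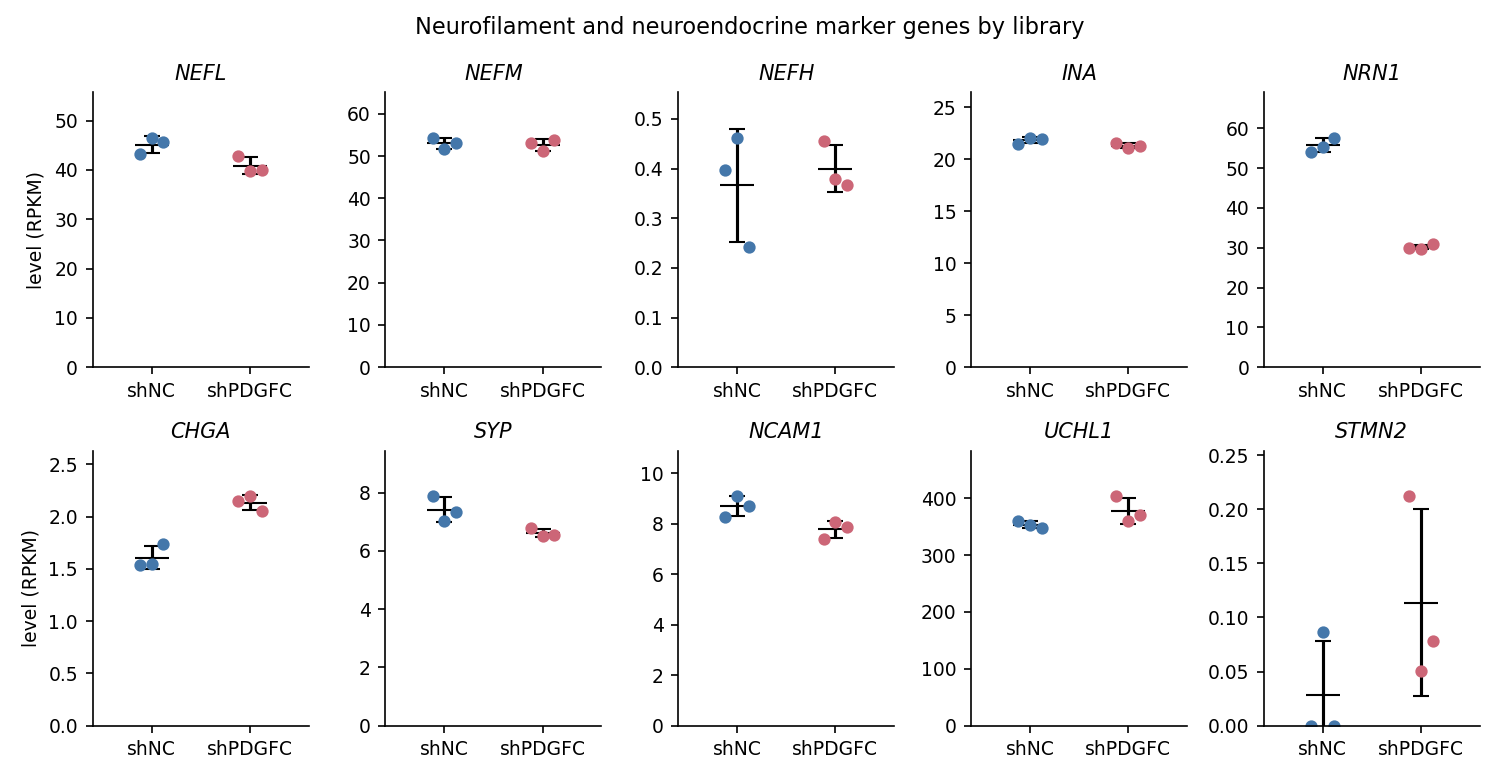
Level of each member in RPKM (vertical axes, each from 0) in the 3 shNC (blue) and 3 shPDGFC (red) libraries, with the mean (bar) and SD (whiskers). The NRN1 points separate most clearly, from 54.2 to 57.6 RPKM in shNC against 29.7 to 30.9 RPKM in shPDGFC, while the NEFM and INA points of the groups overlap.

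Promoter sequence is shown for NRN1, CHGA and UCHL1, respectively the member that fell most, the member that rose and the most abundant member, so that the letters in front of each start can be compared. RefSeq promoters on GRCh38.p14 were at hand for 5 of the 10 members, by symbol. The 250 bases before each start are printed 5′ to 3′ on the gene's strand, in lower case, with capitals marking every match, on either strand, to the 5 motifs searched.
NRN1 (chr6:6004026-6004275, minus strand): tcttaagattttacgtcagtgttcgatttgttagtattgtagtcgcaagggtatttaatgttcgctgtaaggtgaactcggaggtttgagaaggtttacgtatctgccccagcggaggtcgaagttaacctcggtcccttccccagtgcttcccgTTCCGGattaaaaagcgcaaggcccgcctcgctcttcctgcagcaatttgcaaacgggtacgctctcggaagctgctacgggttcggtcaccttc
CHGA (chr14:92922900-92923149, plus strand): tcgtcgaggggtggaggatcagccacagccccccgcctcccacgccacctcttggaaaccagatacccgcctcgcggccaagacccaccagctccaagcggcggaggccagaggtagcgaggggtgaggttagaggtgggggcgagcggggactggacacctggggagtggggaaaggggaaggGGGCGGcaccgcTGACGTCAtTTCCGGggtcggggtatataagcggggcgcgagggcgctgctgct
UCHL1 (chr4:41256678-41256927, plus strand): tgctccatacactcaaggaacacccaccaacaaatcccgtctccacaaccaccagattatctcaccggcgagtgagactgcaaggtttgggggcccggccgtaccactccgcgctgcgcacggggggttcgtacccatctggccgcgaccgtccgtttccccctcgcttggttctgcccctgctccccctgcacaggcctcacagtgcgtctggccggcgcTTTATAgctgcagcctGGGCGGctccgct

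The motifs were the cyclic AMP response element TGACGTCA, the TATA box TATAAA, the GC box GGGCGG, the left part CAGCACC of the element bound by REST, and the ETS core CCGGAA. The CHGA window held the cyclic AMP response element 54 bases before the start, a GC box at 66 and an ETS core, on the opposite strand, at 45, counted at the first base of each match. None of these matches overlapped another. The NRN1 window held only an ETS core, on the opposite strand, at 95. The UCHL1 window held a TATA box read on the opposite strand at 29 and a GC box at 13. Only the exact letters of each motif were searched. Letters close to TATAAA, such as tatataag near the start in the CHGA window, were therefore not marked, and CHGA is not shown to lack such a box. Among 35116 promoter windows of the same length, 1.65% held the cyclic AMP response element, 10.7% the TATA box, 42.6% the GC box, 6.16% the REST element part and 14.5% the ETS core. The REST element part was found in 0 of the 5 member windows, which, at 6.16% of all windows, tells nothing particular about them. The INA and SYP windows, not printed, held a GC box, and the SYP window also held an ETS core. All 3 RefSeq starts lie inside the GENCODE span of the gene. For NRN1 the whole window, 6004026 to 6004275, lies inside that span, 5997999 to 6007605, as does the UCHL1 window. The NRN1 letters are thus not those before the outermost annotated start of the gene. For each printed gene the first window listed under its symbol was used. The motif hits are matches of letters in short windows, and no binding was measured.

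Among the neurofilament subunits, NEFM and NEFL were the most abundant, INA was lower and NEFH was under the 1 RPKM needed for a test. NEFM (ENSG00000104722, GRCh38 chromosome 8, 24913012 to 24919098, plus strand), the medium subunit, was at 54.3, 51.6 and 53.0 RPKM in the shNC libraries and 53.0, 51.1 and 53.7 RPKM in the shPDGFC libraries. The groups overlapped, with a log2 change of -0.01 and a 95% interval from -0.08 to 0.06 (limma, adjusted p = 0.84). Its sign turned without shNC replicate 1 (0.0083) or shPDGFC replicate 2 (0.011). NEFM shares 1706 bases of exon with ENSG00000272163 on the opposite strand, which was at 2.76 and 2.55 RPKM in shNC and shPDGFC.

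NEFL (ENSG00000277586, chromosome 8, 24950955 to 24957110, minus strand), the light subunit on which the others assemble, was at 43.3, 46.5 and 45.6 RPKM in shNC and 42.8, 39.8 and 40.1 RPKM in shPDGFC. Every shPDGFC library lay below every shNC library, but shPDGFC replicate 1 and shNC replicate 1 were close. NEFL fell from 45.1 ± 1.7 to 40.9 ± 1.7 RPKM (n = 3, SD), a log2 change of -0.14 ± 0.039 (SE; limma, adjusted p = 0.032). Leaving out single libraries ended the call for NEFL, with adjusted p of 0.090 (shNC replicate 2), 0.091 (shNC replicate 3), 0.085 (shPDGFC replicate 2) and 0.094 (shPDGFC replicate 3). It was also lost with the replicate number as a block (0.087), no filter on low values (0.088) or no mean-variance trend (0.063). NEFL shares 490 bases of exon with ENSG00000272157 on the opposite strand, at 0.85 and 1.18 RPKM.

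INA (ENSG00000148798, chromosome 10, 103277163 to 103290351, plus strand) was at 21.5, 22.1 and 22.0 RPKM in shNC and 21.6, 21.1 and 21.3 RPKM in shPDGFC. These ranges overlapped, with a log2 change of -0.03 and a 95% interval from -0.09 to 0.02 (limma, adjusted p = 0.33). The level of INA was between 0.396 and 0.428 times that of NEFM in every library. The level of NEFL was 0.797, 0.901 and 0.861 times that of NEFM in shNC and 0.807, 0.777 and 0.747 times in shPDGFC, so the ratio overlapped between groups.

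NEFH (ENSG00000100285, chromosome 22, 29480230 to 29491390, plus strand), the heavy subunit whose long tail projects from the filament, was at 0.396, 0.462 and 0.241 RPKM in shNC and 0.455, 0.378 and 0.367 RPKM in shPDGFC. It lay under the level tested, on 89 reads in all shNC libraries and 88 in all shPDGFC libraries, and the groups overlapped. In every library it was thus far below its partner subunits.

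Other intermediate filament genes, from the list of neuronal cytoskeleton and growth genes, were led by VIM, the gene for vimentin of mesenchymal cells and neural precursors. It was at 266, 274 and 271 RPKM in shNC and 331, 341 and 326 RPKM in shPDGFC. VIM rose by a log2 change of 0.30 ± 0.027 (SE; limma, adjusted p = 0.00077), and no library of a group reached the range of the other. It shares exon sequence with 2 antisense genes, VIM-AS1 at 5.35 and 5.34 RPKM and ENSG00000234961 at 3.23 and 4.45 RPKM (adjusted p = 0.22). PRPH, NES and SYNM, chosen after their values were seen, encode peripherin of peripheral neurons, nestin of neural precursors and synemin. PRPH was at 2.44 ± 0.26 and 1.76 ± 0.42 RPKM (n = 3, SD; adjusted p = 0.071, limma), NES at 7.92 and 8.14 RPKM (adjusted p = 0.63) and SYNM at 6.35 and 6.30 RPKM (adjusted p = 0.89).

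NRN1 (ENSG00000124785, chromosome 6, 5997999 to 6007605, minus strand) encodes neuritin, a small protein anchored to the cell surface that promotes the outgrowth of neurites. Its level was 54.2, 55.4 and 57.6 RPKM in the shNC libraries and 30.0, 29.7 and 30.9 RPKM in the shPDGFC libraries. The groups were far apart compared with the spread within each. NRN1 fell from 55.7 ± 1.8 to 30.2 ± 0.59 RPKM (n = 3, SD), a log2 change of -0.86 ± 0.030 (SE) with a 95% interval from -0.93 to -0.79 (limma, adjusted p = 5.4e-05). The shNC level rested on 5743 reads and the shPDGFC level on 2790. Among the 15337 tested genes, 23 had a change as low as that of NRN1, itself included. It passed under all 15 alternatives run, with log2 changes between -0.88 and -0.84.

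**Figure D2:**
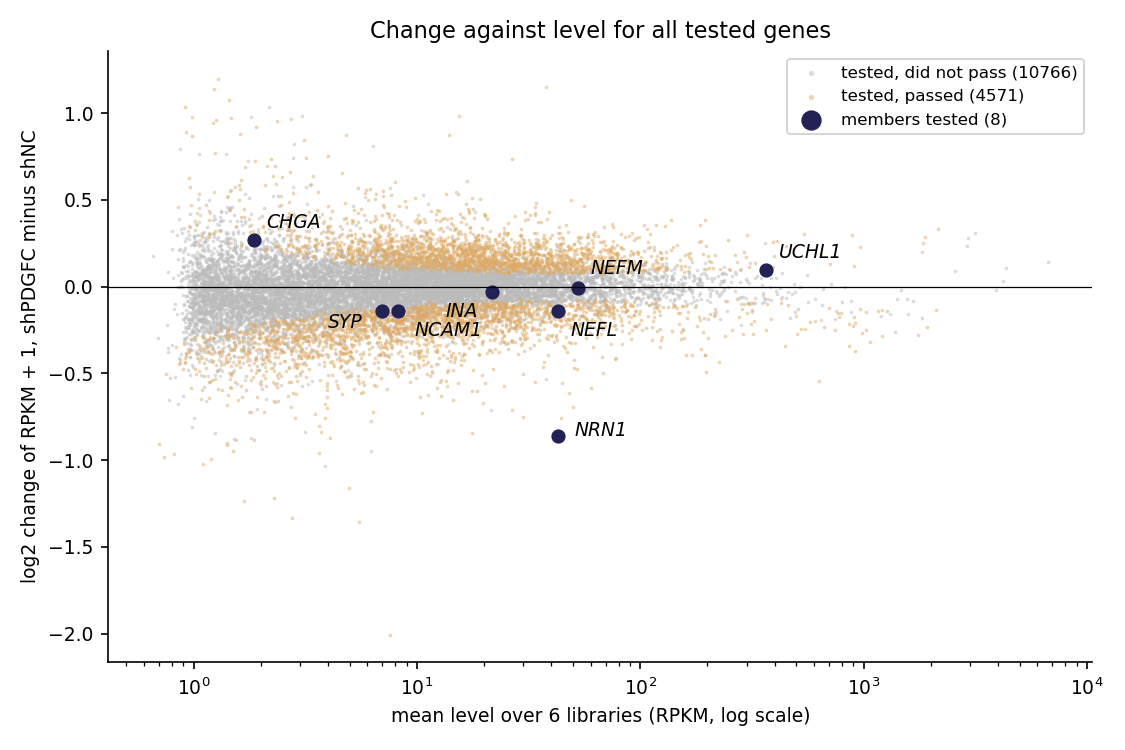
Log2 change of RPKM + 1 (vertical axis, shPDGFC minus shNC) against the mean level over 6 libraries (horizontal axis, RPKM, log scale) for the 15337 tested genes, with the 8 tested members in dark blue. NRN1 lies at -0.86, below most genes of its level, and the other 7 members lie between -0.14 and 0.27.

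Other genes of axon growth and microtubule control moved in both directions. Of 25 tested genes of the neuronal cytoskeleton and growth list 5 rose, 7 fell and 13 did not pass, which is 48% called beside 29.8% of all tested genes, with a median log2 change of -0.04. GAP43, a growth cone protein, was at 5.41, 5.34 and 5.87 RPKM in shNC and 3.42, 3.42 and 3.25 RPKM in shPDGFC. It fell to 0.607 times its shNC level, a log2 change of -0.58 ± 0.049 (SE; limma, adjusted p = 0.0006). Like NRN1, GAP43 had all shPDGFC libraries well below the shNC libraries.

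KIF5C, a heavy chain of the kinesin motor that is enriched in neurons, was at between 11.8 and 11.98 RPKM in shNC and 7.97, 7.70 and 8.13 RPKM in shPDGFC. It fell by 0.53 on the log2 scale (SE 0.032; limma, adjusted p = 0.00024). MAPT, the gene for the microtubule protein tau, which was chosen after its values were seen, fell from 6.13 ± 0.071 to 4.73 ± 0.071 RPKM (n = 3, SD; adjusted p = 0.0015, limma). In the other direction, MAP1B, a microtubule-associated protein of growing axons, rose from 10.2 ± 0.097 to 11.9 ± 0.38 RPKM (n = 3, SD; adjusted p = 0.0041, limma). DPYSL2, a collapsin response mediator, rose from 12.7 ± 0.090 to 14.0 ± 0.41 RPKM (n = 3, SD; adjusted p = 0.017). Its adjusted p was 0.0506 with shNC replicate 1 left out, 0.0505 with shNC replicate 2 left out and 0.0517 with the replicate block, so that DPYSL2 then missed the threshold. It shares 71 bases of exon with PNMA2 on the opposite strand, at 28.5 and 26.9 RPKM. Other collapsin response mediators, chosen after their values were seen, fell. CRMP1 went from 28.2 to 25.0 RPKM (limma, adjusted p = 0.003), DPYSL3 from 32.7 to 27.9 RPKM (0.004) and DPYSL5 from 25.4 to 23.8 RPKM (0.035). None of these was followed singly under the alternatives.

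STMN2 (ENSG00000104435, chromosome 8, 79610814 to 79666175, plus strand) encodes stathmin 2, a neuronal protein that destabilises microtubules. It had 0, 3 and 0 reads in the shNC libraries and 7, 2 and 3 reads in the shPDGFC libraries, and was at most 0.212 RPKM. In 5 of the 6 libraries it was thus at or under the floor of 3 reads. Over the groups, 3 and 12 reads gave a ratio of 4.46 after scaling by the library totals, with an exact 95% interval from 1.2 to 24.6 that covers counting error only, and 7 of the 12 came from 1 library. With no filter on low values STMN2 had an adjusted p of 0.41 (limma).

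The other stathmins, of the same list, were expressed at very different levels. STMN1, the stathmin of dividing cells, was at 253, 257 and 264 RPKM in shNC and 195, 192 and 185 RPKM in shPDGFC. It fell by 0.43 on the log2 scale (SE 0.029; limma, adjusted p = 0.0003), with the groups well apart. STMN3 rose from 14.5 ± 0.18 to 15.8 ± 0.40 RPKM (n = 3, SD; adjusted p = 0.023, limma), and STMN4, at 0.732 and 0.595 RPKM, lay under the level tested. Both were chosen after their values were seen. With 1 library left out, as few as 2 genes of the neuronal cytoskeleton list rose, and VIM and MAP1B kept their calls in all these fits. STMN3 thus missed the threshold in at least 1 of them.

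CHGA (ENSG00000100604, chromosome 14, 92923080 to 92935293, plus strand), chromogranin A of dense-core granules, was at 1.54, 1.55 and 1.73 RPKM in shNC and 2.15, 2.19 and 2.05 RPKM in shPDGFC. All shPDGFC libraries lay above all shNC libraries, on 73, 56 and 79 reads against 74, 91 and 82. CHGA rose from 1.61 ± 0.11 to 2.13 ± 0.071 RPKM (n = 3, SD), a log2 change of 0.27 ± 0.066 (SE; limma, adjusted p = 0.021). Leaving out single libraries moved the adjusted p of CHGA to 0.066 (shNC replicate 1), 0.060 (shNC replicate 2), 0.055 (shPDGFC replicate 1) and 0.060 (shPDGFC replicate 2). It was 0.064 with the replicate block and 0.068 with no filter on low values. Of the 15337 tested genes 13126 were as abundant as CHGA or more.

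SYP (ENSG00000102003, chromosome X, 49187804 to 49200259, minus strand), synaptophysin of vesicle membranes, was at 7.87, 7.01 and 7.34 RPKM in shNC and 6.78, 6.52 and 6.55 RPKM in shPDGFC. The shPDGFC libraries lay below the shNC libraries without overlap, but the difference did not pass. Its log2 change was -0.14, with a 95% interval from -0.25 to -0.03 (limma, adjusted p = 0.055). It passed without shNC replicate 2 (adjusted p = 0.040), with upper-quartile scaling (0.040), with a filter of 5 RPKM (0.044) and with limma-voom on the reads (0.047).

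The remaining genes of granules and synapses did not move together. Of 16 tested, 2 rose, 2 fell and 12 did not pass, which is 25% called beside 29.8% of all tested genes, with a median log2 change of 0.04. PAM, the enzyme that amidates peptide hormones, rose from 34.7 ± 1.1 to 39.5 ± 0.97 RPKM (n = 3, SD; adjusted p = 0.0052, limma). SYPL1, a relative of synaptophysin found in many tissues, rose from 35.4 ± 0.69 to 38.5 ± 0.68 RPKM (n = 3, SD; adjusted p = 0.012). Neither gene is restricted to neuroendocrine cells.

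SNAP25 and SYT1, which act in the fusion of vesicles with the cell membrane, fell. SNAP25 was at 4.78, 4.83 and 3.95 RPKM in shNC and 3.54, 3.56 and 3.58 RPKM in shPDGFC (limma, adjusted p = 0.025), with shNC replicate 3 nearest to the shPDGFC libraries. With single libraries left out, the adjusted p of SNAP25 was 0.080 (shNC replicate 1) and 0.074 (shNC replicate 2). It was 0.063 (shPDGFC replicate 1), 0.059 (shPDGFC replicate 2) and 0.062 (shPDGFC replicate 3). Of these 6 fits, the call held only without shNC replicate 3 (0.0086). Of all 14 alternatives that tested SNAP25, it passed under 8. SYT1 fell from 6.90 ± 0.25 to 5.93 ± 0.38 RPKM (n = 3, SD, limma adjusted p = 0.029) and passed under 9 of the 15 alternatives run. Among the alternatives under which SYT1 missed the threshold were 4 that left out a library. They gave 0.089 (shNC replicate 1), 0.081 (shNC replicate 3), 0.068 (shPDGFC replicate 1) and 0.061 (shPDGFC replicate 2). The replicate block also ended the call for SYT1 (0.064), and this list is not complete. CPE, the carboxypeptidase that trims prohormones and the most abundant gene of the list, was at 66.8 and 70.3 RPKM and did not pass (adjusted p = 0.054), except without shPDGFC replicate 2 (0.045), with a filter of 5 RPKM (0.046) and with limma-voom (0.038). CHGB and ENO2, further neuroendocrine markers chosen after their values were seen, were at 2.87 and 2.85 RPKM (adjusted p = 0.94) and at 29.8 and 30.0 RPKM (adjusted p = 0.82).

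NCAM1 (ENSG00000149294, chromosome 11, 112961247 to 113278436, plus strand), the neural cell adhesion molecule, was at 8.27, 9.08 and 8.72 RPKM in shNC and 7.39, 8.05 and 7.89 RPKM in shPDGFC. As for SYP, the libraries of the groups did not overlap and the difference did not pass, with a log2 change of -0.14 and a 95% interval from -0.25 to -0.04 (limma, adjusted p = 0.053). NCAM1 passed without shNC replicate 1 (adjusted p = 0.048), with the replicate block (0.044), upper-quartile scaling (0.043), a filter of 5 RPKM (0.040) or limma-voom (0.0087). It shares exon sequence with 2 antisense genes, of which the higher was at 1.19 and 1.46 RPKM.

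UCHL1 (ENSG00000154277, chromosome 4, 41256413 to 41268455, plus strand), a ubiquitin hydrolase abundant in neurons, was the most abundant member by far. Only 103 of the 15337 tested genes were as abundant, UCHL1 included. It was at 360.3, 353 and 347 RPKM in shNC and 403, 361 and 369.8 RPKM in shPDGFC. The libraries of the groups did not overlap, with shNC replicate 1 and shPDGFC replicate 2 almost level. Its log2 change was 0.09, with a 95% interval from -0.01 to 0.20 (limma, adjusted p = 0.14), and it passed with limma-voom on the reads (adjusted p = 0.016). UCHL1 made up between 63.9% and 65.3% of the summed RPKM of the 10 members in shNC and between 69.4% and 71.0% in shPDGFC. That sum includes NRN1, which fell, so the share moves with NRN1 as well as with UCHL1. UCHL3 and UCHL5, hydrolases of the same family chosen after their values were seen, were at 6.13 and 5.73 RPKM (adjusted p = 0.65) and at 33.0 and 33.8 RPKM (adjusted p = 0.60).

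In shNC the order of the levels was UCHL1, NRN1, NEFM, NEFL, INA, NCAM1, SYP, CHGA, NEFH and STMN2. NRN1 and NEFM overlapped in their libraries there, and the other neighbours did not. In shPDGFC NRN1 stood below NEFM and NEFL, and the other genes kept their order, with no overlap between neighbours.

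**Figure D3:**
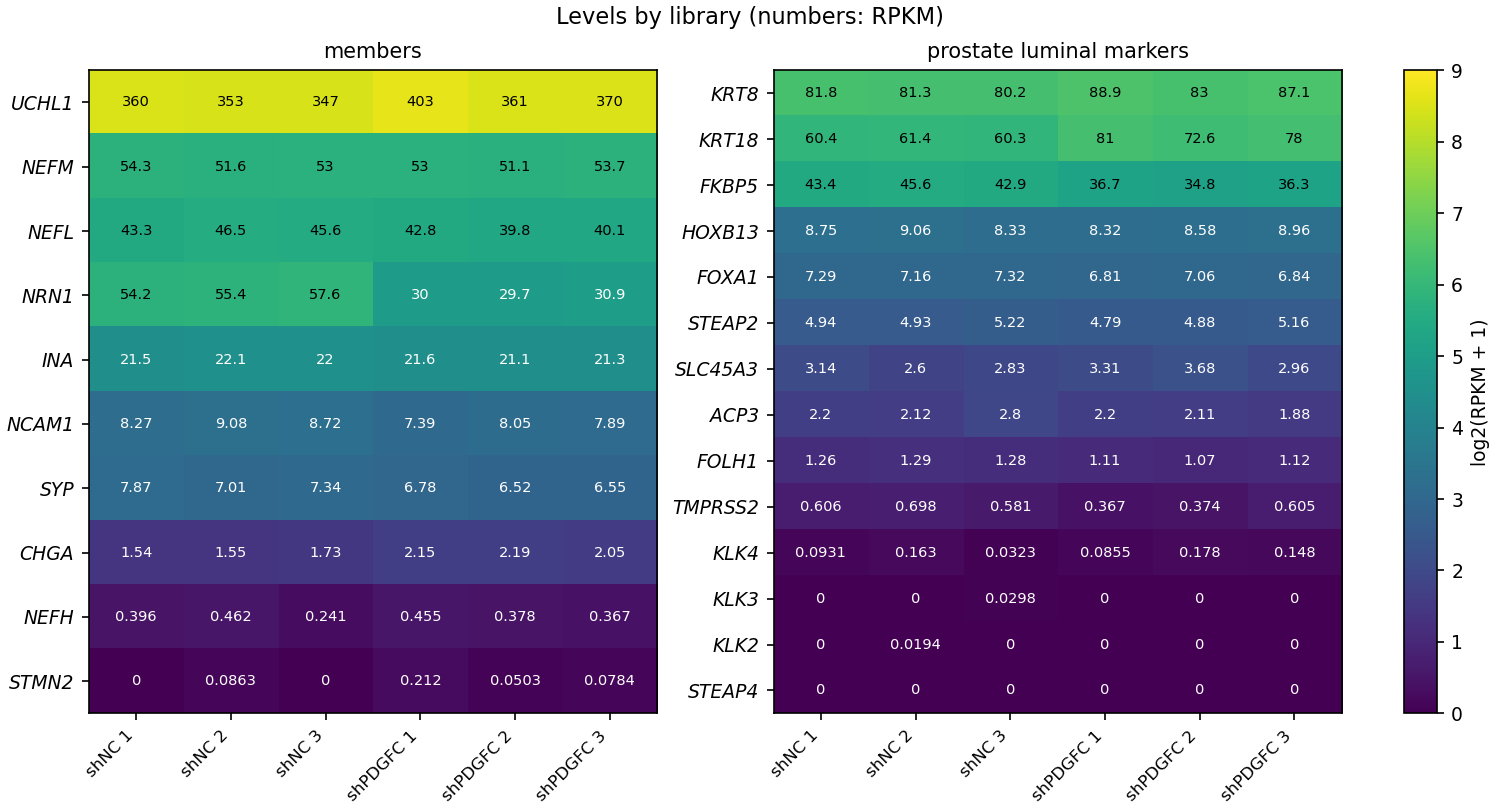
Levels of the 10 members (left) and of 14 prostate luminal genes (right) in each of the 6 libraries, coloured by log2(RPKM + 1) with the RPKM printed in each cell. NRN1 changes colour between the groups, and KLK3, KLK2 and STEAP4 are at or near 0 in every library.

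Transcription factors and regulators linked to neuroendocrine prostate cancer or neural fate also went both ways. Of 20 tested, 3 rose, 4 fell and 13 did not pass, which is 35% called beside 29.8% of all tested genes, with a median log2 change of 0.01. ONECUT2, a homeodomain factor, was at 6.89, 6.57 and 6.93 RPKM in shNC and 4.46, 4.95 and 4.77 RPKM in shPDGFC. It fell by 0.45 on the log2 scale (SE 0.046; limma, adjusted p = 0.001), and its groups were well separated. ISL1, a factor of motor neurons and endocrine cells, fell from 12.3 ± 0.63 to 9.08 ± 0.32 RPKM (n = 3, SD; adjusted p = 0.0013, limma). EZH2, the methyltransferase of the Polycomb complex, fell from 65.1 ± 0.76 to 54.0 ± 0.54 RPKM (n = 3, SD; adjusted p = 0.00051, limma).

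POU3F2, a neural factor that was chosen after its values were seen, also fell, from 9.41 ± 0.11 to 7.82 ± 0.30 RPKM (n = 3, SD; adjusted p = 0.0037, limma). RCOR1, a partner of REST, rose from 15.4 ± 0.67 to 17.1 ± 0.15 RPKM (n = 3, SD; adjusted p = 0.019, limma) and did not pass without shPDGFC replicate 3 (0.058). TBX3 rose from 24.9 ± 0.59 to 27.2 ± 0.87 RPKM (n = 3, SD; adjusted p = 0.026). TBX3 missed the threshold with shNC replicate 2 (0.076), shNC replicate 3 (0.077), shPDGFC replicate 2 (0.067) or shPDGFC replicate 3 (0.068) left out. With the replicate block it was at 0.076, and TBX3 passed under 8 of the 15 alternatives run. AURKA, a mitotic kinase, was at 56.6 and 58.6 RPKM and did not pass (adjusted p = 0.31).

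REST, the repressor of neuronal genes, and the neuroendocrine factors NEUROD1 and INSM1 were named after their values were seen. REST was at 12.7 ± 0.27 and 13.2 ± 0.21 RPKM (n = 3, SD; adjusted p = 0.18, limma), and INSM1 at 1.44 and 1.43 RPKM (adjusted p = 0.997). NEUROD1 had 11 reads in all shNC libraries together and 6 in shPDGFC. NEUROD1 was thus near the floor in both groups, while NEFM, NEFL, INA and UCHL1 mRNAs were abundant and NEFH was not. Other factors of the same list were well above the floor, such as ISL1 at 12.3 and 9.08 RPKM.

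**Figure D4:**
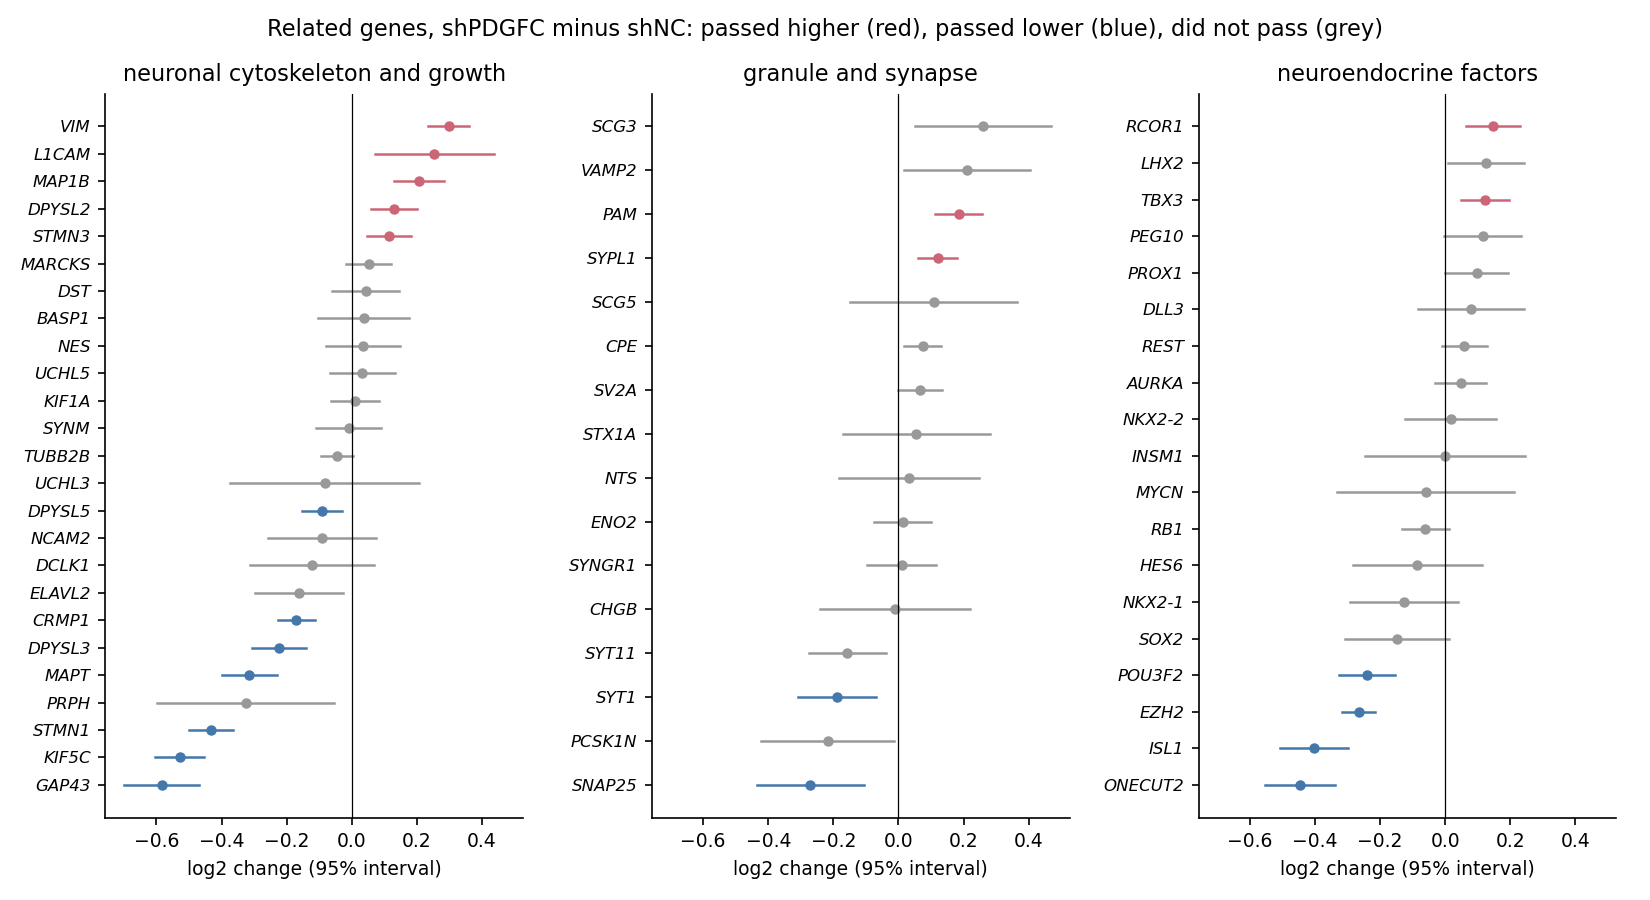
Log2 change of RPKM + 1, shPDGFC minus shNC (horizontal axis, points, with 95% intervals as lines), for the tested genes of the neuronal cytoskeleton and growth list (25), the granule and synapse list (16) and the neuroendocrine factor list (19 of 20 drawn). GAP43 has the lowest value, -0.58, VIM the highest, 0.30, and every list holds genes that rose (red), fell (blue) and did not pass (grey).

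Markers of the labelled cell type were checked beside these genes. KLK3, the gene for prostate-specific antigen and a defining product of LNCaP cells, had 1 read in all shNC libraries together and 0 in shPDGFC, as had KLK2, and STEAP4 had none. KLK4 and TMPRSS2 were also low, at 0.0960 and 0.137 RPKM and at 0.628 and 0.449 RPKM. Of 16 luminal genes 11 were tested, of which 1 rose and 2 fell, which is 27.3% called and near the 29.8% of all tested genes. KRT18 rose (60.7 to 77.2 RPKM; limma, adjusted p = 0.0015) and FKBP5 fell (44.0 to 35.9 RPKM; adjusted p = 0.0015). The other 8 did not pass, and group means of KRT8, HOXB13, FOXA1, STEAP2, SLC45A3, ACP3 and FOLH1 lay between 1.10 and 86.3 RPKM. The median log2 change of the list was -0.02.

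Of 6 basal cell markers 2 were tested, DST and NGFR, and neither passed (limma, adjusted p = 0.50 and 0.55; unadjusted 0.36 and 0.41), nor with limma-voom. The list had a summed level between 13.5 and 14.3 RPKM in shNC and 13.6 and 14.7 RPKM in shPDGFC. Most of it came from DST (12.3 and 12.7 RPKM), which many cells express and which also stands in the neuronal cytoskeleton list, while KRT5 had 3 and 2 reads and KRT14 had 3 and 0. Of 13 markers of glia, stroma, vessels and blood 3 were tested. MBP, the gene for myelin basic protein, was chosen after its values were seen and fell (6.04 to 4.26 RPKM, limma, adjusted p = 0.00087). COL1A1 was at 6.01 and 5.14 RPKM and did not pass (limma, adjusted p = 0.0502). COL1A1 passed under 5 of the 15 alternatives run, with an adjusted p of 0.028 without shNC replicate 2. The summed level of the 13 was between 14.1 and 15.5 RPKM in shNC and between 10.9 and 12.3 RPKM in shPDGFC, without overlap, and its part in the fall of NRN1 was not tested. Single markers of this list were near 0, with PECAM1 at 10 and 10 reads and COL1A2 at 3 and 1 read.

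The genes whose course over the 6 libraries was most like that of the most abundant member, UCHL1, were PDP1, ETFA, CMAS, APIP and DHX16. Likeness was the root mean square difference of log2(RPKM + 1) after subtraction of each gene's mean, and it was 0.012, 0.013, 0.015, 0.018 and 0.019. For NRN1, chosen after its values were seen, the nearest were IDH3A (0.026), PKIA (0.062), LIPA (0.065), SERPINH1 (0.077) and FAM171A1 (0.082). Their log2 changes, between -0.84 and -0.73, follow from this choice and are given as a description. IDH3A, a subunit of mitochondrial isocitrate dehydrogenase, went from 22.9 to 12.3 RPKM.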

How the data were processed

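RNA-seq was measured in 6 libraries of human cells labelled LNCaP, 3 shNC and 3 shPDGFC, grouped by their titles. The authors deposited 1 table of values per gene and library, whose header names no unit. The deposited values were read as RPKM from their own steps: after division by 1 factor per library, the 6 values of all 37040 genes with any value stood in ratios of whole numbers (tolerance 1e-12). The reads and library totals were recovered from these steps, and summed to between 99.45% and 99.46% of the totals. The sources used here name no aligner, counter, annotation or strand setting, so reads of antisense pairs may be mixed. All 60664 identifiers are human, although the builds listed in the submitters' processing notes, GRCm38 and mm10, are of the mouse. Symbols came from a table of gene names and coordinates from GENCODE 29 (GRCh38), by identifier, for 60652 identifiers with a name.

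The test, for genes with at least 1 RPKM in at least 3 libraries, was limma 3.58.1 (R 4.3.3), two-sided, unblocked and with a mean-variance trend, on log2 values of RPKM + 1 computed from the deposited values. The fit was checked on simulated reads, whose changes were larger than those of NEFL and CHGA. That check does not cover changes as small as these. The members, lists and tests were chosen with earlier results of these data known. Genes named are the 10 members, PDGFC, up to 3 higher and 3 lower genes with the smallest p and the 2 most abundant of each of 3 related lists, luminal markers and the most abundant basal and glial or stromal marker. Some genes of the lists are counted in them but not reported here by name. Any other gene is said to be chosen after its values were seen, or is given as a marker near 0, as sharing exon sequence or as alike in course. NGFR is named as the other basal marker tested, beside DST. Over genes with 20 reads or more in a pair, libraries of 1 group differed by a chi-square of 1.46 to 2.57 per degree of freedom, above sampling noise, and none was left out. A level of 3 reads was between 0.125 and 0.173 CPM. Intervals and floors from reads cover counting error only. Alternatives were other pseudocounts, filters, scaling, no trend, a replicate block, leaving out each library, and limma-voom on the reads, which was added after seeing the data. The count models planned for whole reads were not run, because the deposited values were read as RPKM. The recovered reads, used for limma-voom, could have served them.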

Additional observations from a re-analysis of the deposited data

How the results depend on the processing

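NRN1, PDGFC, GAP43, KIF5C, STMN1, VIM, MAP1B, EZH2, ONECUT2, ISL1, PAM and SYPL1 kept their direction and their call under all 15 alternatives run. List genes added after their values were seen, such as MAPT, DPYSL5 and MBP, and the luminal markers were followed only as counts of their lists. NEFM, which did not pass, turned its sign without shNC replicate 1 (0.0083) or shPDGFC replicate 2 (0.011), and lay between -0.028 and 0.011 over the 6 fits that left out 1 library. The number of members that rose, 1, was 0 with no filter on low values, with a filter of 5 RPKM (CHGA is then not tested) and with the replicate block, 2 with limma-voom, and from 0 to 1 when 1 library was left out. The number that fell, 2, was 1 with no filter and with no mean-variance trend, 4 with a filter of 5 RPKM, with upper-quartile scaling and with limma-voom, and from 1 to 3 with 1 library left out. For granule and synapse genes, the 2 that rose became 5 with limma-voom (2 to 3 with 1 library left out), and the 2 that fell became 1 with no filter or the replicate block, and 0 to 2 with 1 library left out. For neuronal cytoskeleton genes, the 5 that rose became 3 with the replicate block and 2 to 4 with 1 library left out. For neuroendocrine factors, the 3 that rose became 1 with no filter, no trend or the replicate block, and 0 to 3 with 1 library left out. For luminal genes, the 1 that rose became 2 with a filter of 5 RPKM or limma-voom (1 to 2 with 1 library left out), and the 2 that fell became 1 with no filter, a filter of 0.5 or 5 RPKM, the replicate block or limma-voom, and 1 with any library left out. For glia, stroma and blood markers, the 1 that fell became 2 with a pseudocount of 0.1, a filter of 5 RPKM, upper-quartile scaling or no trend, 3 with limma-voom, and 1 to 2 with 1 library left out. The cause of these changes was not tested. Over all genes, the 2173 higher and 2398 lower genes were 1524 to 1841 and 1653 to 2026 with 1 library left out, and 1628 and 1841 with the replicate block.

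The replicate numbers share no stated origin. The deviations of same-numbered libraries from their group means had correlations of -0.10, -0.11 and -0.02 across genes, so the block was kept as an alternative only. Under it NRN1 kept its call (adjusted p = 0.0027). The number of libraries, 3 per group, limits the precision of every change. NEFH and STMN2 lay under the level tested, so they have no call, and STMN2 rests on 3 reads in shNC and 12 in shPDGFC. The 3 count-model alternatives planned for whole reads were not run, since the values were read as RPKM, although the recovered reads could have served them.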
